A study of Sus scrofa with 4 samples.

Results

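Matrix metalloproteinases (MMPs) are zinc-dependent proteases that cut collagens, fibronectin, proteoglycans and other proteins of the extracellular matrix, and the tissue inhibitors of metalloproteinases (TIMPs) bind to their active site and block it. After myocardial infarction (MI) these proteases open the matrix for infiltrating cells and take part in scar formation and in remodeling of the left ventricle. Most MMPs are secreted as inactive proenzymes, whereas MMP14 is anchored in the cell membrane, where together with TIMP2 it activates the MMP2 proenzyme. The expression of 5 MMP genes (MMP1, MMP2, MMP3, MMP9 and MMP14) and 3 TIMP genes (TIMP1, TIMP2 and TIMP3) was examined here in infarcted minipig heart. They were chosen by gene symbol, and every probe set that the annotation of the array platform assigned to one of them alone was taken, which gave 14 probe sets of 24123, or 8 of 6765 genes with a symbol.

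Heart tissue of minipigs was measured on 4 Affymetrix Porcine Genome Arrays, 1 array for each of the infarct and border zones after myoblast transplantation, and 1 for each of these zones of control hearts. All minipigs had MI, and according to the methods they were female Bama minipigs 4 months old, with permanent ligation of the left circumflex coronary artery. The transplanted cells were human skeletal myoblasts in DMEM, injected into the heart wall under cyclosporin A, so the graft was human and the array carries porcine probes. The study's text names its control treatment group, which received DMEM and cyclosporin A after MI, as the one set against the myoblast group on the arrays, whereas the labels call the control hearts untreated. Each condition had 1 array, and the number of minipigs behind an array and the week of sampling are not given in the sources used here. No spread between minipigs can therefore be estimated, the ratios below carry no p-value, and "called" means at least 2-fold apart, the threshold of the methods. Fewer cells of a type and less RNA per cell cannot be told apart in tissue RNA.

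The values are MAS 5.0 signals in linear units, and the median signal of an array was 137 to 142. Dim probe sets differed between arrays more often than bright ones. Among the dimmest ones, with signals averaging under 32 units, 52.6% of probe sets differed 2-fold or more between the infarct and border zones of control hearts, against 1.43% at 128 to 512 units and 0.245% at 512 to 2048 units. Markers of cardiomyocytes lay above the array median on all 4 arrays for 12 of 12 genes measured. Of 9 markers of skeletal myoblasts and myofibres measured, 8 lay below the medians on all 4 arrays, and CKM, which heart muscle also expresses, was the only one above them. The EF1A 3'/5' signal ratio, a sign of RNA integrity, was 3.01 and 2.49 on the myoblast arrays (border and infarct zone) and 4.17 and 4.13 on the control arrays. The 3'/5' ratio of a GAPDH pair did not separate the treatments. It was 1.73 and 1.38 on the myoblast arrays and 1.55 and 1.52 on the control arrays. For the other GAPDH pairs and the actin pairs, the 3' signal was lower relative to the 5' signal with myoblasts. This was the direction of EF1A, in the mean of the log2 ratios over both zones, and its size varied between pairs. The 28S rRNA signal was 8477 and 10230.4 on the myoblast arrays and 15769.7 and 15983 on the control arrays. The part of these array differences in the results below was not tested.

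**Figure D1:**
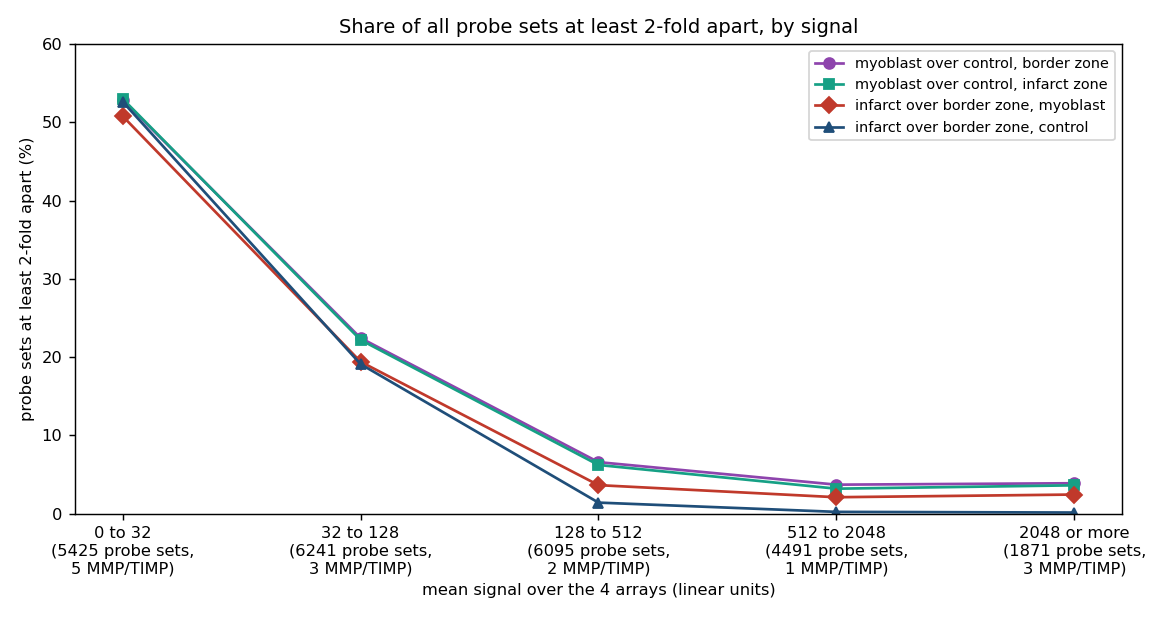
Percentage of the array's probe sets that passed 2-fold (y axis) in classes of mean signal over the 4 arrays (x axis, linear units, with the number of probe sets and of MMP and TIMP probe sets in each class), for the 4 comparisons. In the dimmest class 50.8% to 53.0% pass 2-fold in each comparison, and 5 of the 14 MMP and TIMP probe sets lie there.

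The MMP and TIMP probe sets fell into 2 classes of signal. MMP2, MMP14, TIMP1, both TIMP2 probe sets and 1 of 3 TIMP3 probe sets (6 probe sets of 5 genes) lay above the array median on all 4 arrays. MMP1, MMP9, all 4 MMP3 probe sets and the other TIMP3 probe sets (8 probe sets of 4 genes) lay below it on all 4. Among the brighter ones, MMP14 in the infarct zone was the only one to differ by 2-fold in any of the 4 comparisons.

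**Figure D2:**
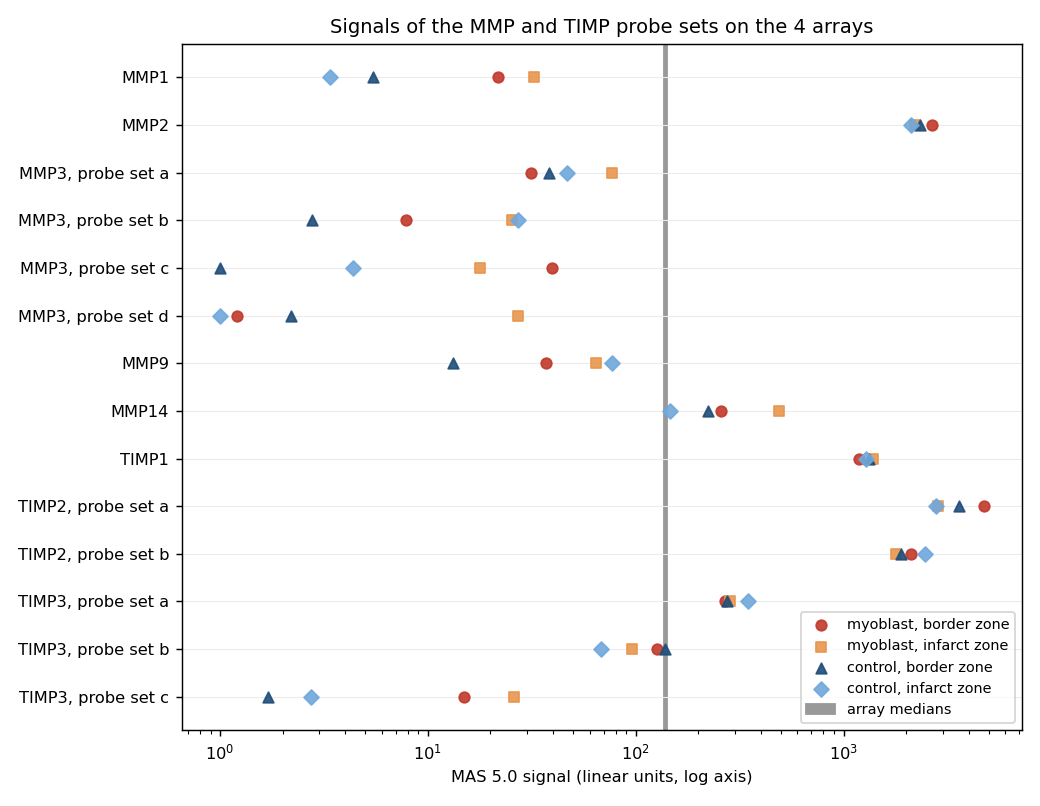
MAS 5.0 signals (x axis, log scale) of the 14 probe sets (y axis; probe sets of a gene are lettered by falling mean signal) on the 4 arrays, with the range of the array medians as a grey band. The MMP14 signal of the myoblast infarct array (490.0) stands apart from its other 3 signals (145 to 258), while the MMP2, TIMP1 and TIMP2 signals lie close together between 1185 and 4750.2 units.

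The membrane protease MMP14 was higher with myoblasts in the infarct zone. Its probe set had signals of 490.0 on the myoblast infarct array against 145 on the control infarct array, a ratio of 3.37 (log2 ratio 1.75). In the border zone it had 258 on the myoblast array against 223 on the control array, a ratio of 1.15 (log2 ratio 0.21). The infarct zone of the myoblast hearts was thus the highest of the 4 and the infarct zone of the control hearts the lowest, close to its array median of 137. The ratio of the infarct zone was 2.92 times that of the border zone, and the direction between zones was opposite under the 2 treatments, with the infarct zone at 1.90 times the border zone on the myoblast arrays and at 0.651 times on the control arrays. Among the 6095 probe sets of 128 to 512 units, 3.69% were at least 2-fold higher with myoblasts in the infarct zone and 3.54% in the border zone. No second MMP14 probe set was annotated, so this value rests on 1 probe set and a pair of arrays.

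Markers of other cell types differed between the same arrays. Of 7 macrophage and monocyte markers measured, 2 were at least 2-fold higher with myoblasts in the infarct zone and none lower (the brighter CD14 probe set and FCGR1A, both below the array median), where 6.5% of all genes were higher. The dimmer CD14 probe set went the other way there, with 41.8 on the myoblast infarct array against 73.2 on the control infarct array. In the border zone it had 20.6 (myoblast) against 4.96 (control), and the brighter CD14 probe set 42.5 against 54.4. Of the 7 markers, 2 were at least 2-fold higher and none lower there (ITGAM and FCGR1A, both below the array median), against 6.42% and 5.75% of all genes. The brighter ITGAM probe set had 30.9 (myoblast) against 9.51 (control) in border tissue and 34.1 against 51.1 in infarct tissue. Its dimmer probe set went the other way, with 9.21 against 39.4 and 20.5 against 12.9. The less bright of 2 CD163 probe sets, above the median on all 4 arrays, was lower with myoblasts in both zones, with 415 on the myoblast infarct array against 1314 on the control infarct array and 251 on the myoblast border array against 1149 on the control border array, while the brighter had 1810.0 against 1299.6 and 1053 against 1330.2. The summed signal of the list, with the brightest probe set of each gene, was 6242 on the myoblast infarct array against 4300 on the control infarct array, and 5055 on the myoblast border array against 3879 on the control border array. All 5 neutrophil markers measured lay below the array medians, with summed signals of 260.4 and 255 on the myoblast arrays (infarct and border zone) and 133 and 149 on the control arrays. With myoblasts, 3 were at least 2-fold higher and 1 lower (LTF) in infarct tissue, against 6.5% and 5.78% of all genes. In border tissue 2 were higher and none lower, against 6.42% and 5.75%. S100A8 had ratios below 1 in both zones (0.915 in border and 0.769 in infarct tissue). Fibroblast markers (8 measured) summed to 49294 on the myoblast infarct array against 65403 on the control infarct array, and to 81800 on the myoblast border array against 65180 on the control border array. The list was mixed in the infarct zone, where COL1A2 (1.61), FAP (1.20) and TCF21 (1.65) had ratios above 1. Ratios were below 1 for 5 of the 8 in infarct tissue and 1 in border tissue, against 50.2% and 48.0% of all genes. Of 12 cardiomyocyte markers, 10 had ratios below 1 in both zones, none of them 2-fold lower, beside those shares of all genes in single zones. NPPA went the other way, with ratios of 4.24 (border) and 3.38 (infarct), and RYR2 had 0.802 and 1.13. The list summed to 235913 and 221050 on the myoblast arrays (infarct and border zone) and to 292757 and 254582 on the control arrays. The part of these cell types in the MMP14 difference was not tested.

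The profile of MMP14 over the 4 arrays was compared with those of 4558 genes whose signals lay above the array median on every array, by Euclidean distance between centred log2 signals. The nearest were the nuclear receptor NR4A2 (distance 0.32), the galectin LGALS3 (0.35) and the endothelial adhesion molecule VCAM1 (0.36). NR4A2 had signals of 378 on the myoblast infarct array and 233 on the myoblast border array, against 153 and 207 on the control arrays of the same zones. LGALS3 had 2005 and 1434 against 697 and 935 in the same order, and VCAM1 8269 and 5747 against 2762 and 3618. Like MMP14, all 3 were highest in the infarct zone of the myoblast heart and lowest in that of the control heart. They were chosen as the nearest profiles, so this shared order is no separate result. With 4 arrays this likeness is a description only.

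The gelatinase MMP2, which cleaves basement membrane collagen and denatured collagen and is expressed in cardiac fibroblasts, was bright and nearly even. It had signals of 2668 and 2213 on the myoblast border and infarct arrays, against 2324 and 2113 on the control border and infarct arrays. The ratios of myoblast over control were 1.15 (border) and 1.05 (infarct). The infarct zone had 0.829 times the border zone signal on the myoblast arrays and 0.909 times on the control arrays, so that MMP2 was a little lower in the infarct zone under both treatments. The other gelatinase, MMP9, a product of neutrophils and macrophages, was dim. It had 37.0 on the myoblast border array against 13.2 on the control border array, and 64.4 on the myoblast infarct array against 76.8 on the control infarct array. Its ratios lay on opposite sides of 1, at 2.80 (border) and 0.839 (infarct). The lowest of its 4 signals was that of the control border array, and the infarct zone of control hearts had 5.81 times that signal.

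The interstitial collagenase MMP1, which makes the first cut in fibrillar collagen, had the same direction in both zones, at low signals. It had 21.7 on the myoblast border array against 5.44 on the control border array (ratio 3.98), and 32.5 on the myoblast infarct array against 3.40 on the control infarct array (ratio 9.56). Both myoblast signals were higher than both control signals, but their mean lay in the class under 32 units, where 25.5% of all probe sets were at least 2-fold higher with myoblasts in border tissue and 27.0% in infarct tissue.

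Stromelysin 1 (MMP3), which cleaves proteoglycans, laminin and fibronectin and activates other proMMPs, was represented by 4 probe sets that did not follow each other. The brightest had 31.4 on the myoblast border array against 38.1 on the control border array, and 76.9 on the myoblast infarct array against 46.7 on the control infarct array. The next had 7.87 (myoblast) against 2.77 (control) in border tissue, and 25.4 against 27.2 in infarct tissue. The third had 39.6 against 1 and 17.9 against 4.37, and the dimmest 1.20 against 2.18 and 27.2 against 1. A signal of 1 is the lowest value on every array, so no ratio is given against it, although such a pair counts as called below where the signals are 2-fold apart. A single one of the 4 probe sets was higher with myoblasts in both zones. The zone order was no more alike: the infarct zone was at least 2-fold above the border zone on the myoblast arrays for 3 of the 4 probe sets, with ratios of 2.45, 3.23 and 22.6, and at 0.451 times the border zone for the remaining one. On the control arrays it was 1.22 and 9.83 times the border zone for the brighter pair, and for the dimmer pair 1 of the 2 signals was the lowest value of 1. No direction for MMP3 can be given from these signals. RefSeq's gene table for the assembly Sscrofa11.1 places MMP3 and MMP1 among 8 MMP genes on 1 chromosome. Their order is MMP7, MMP20, MMP27, MMP8, MMP1, MMP3, MMP12 and MMP13. The distances and other genes between them were not examined.

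TIMP1, the soluble inhibitor that also binds the MMP9 proenzyme, was the most even of the 8 genes. It had 1185 and 1391 on the myoblast border and infarct arrays, against 1324 and 1281 on the control arrays of the same zones. The ratios of myoblast over control were 0.895 and 1.09, so that the 4 signals did not order the groups. The infarct zone had 1.17 times the border zone signal with myoblasts and 0.967 times in controls.

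TIMP2, the inhibitor that also links proMMP2 to MMP14, was measured by 2 bright probe sets. The brighter had 4750.2 on the myoblast border array against 3576 on the control border array, and 2831 on the myoblast infarct array against 2775 on the control infarct array. Its ratios of myoblast over control were 1.33 and 1.02, and the infarct zone was lower than the border zone with myoblasts (0.596 times) and in controls (0.776 times). The other probe set had 2101 (myoblast) against 1890.5 (control) in border tissue, and 1797 against 2467 in infarct tissue, that is ratios of 1.11 and 0.728. Both probe sets were slightly higher with myoblasts in the border zone, and on the control arrays they ran in opposite directions between zones, the second at 1.30 times the border zone.

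TIMP3 differs from the other inhibitors in that it binds to the matrix, and it also inhibits the ADAM protease ADAM17. Its brightest probe set had 269 on the myoblast border array against 275 on the control border array, and 284 on the myoblast infarct array against 347 on the control infarct array, ratios of 0.978 and 0.819. The second had 127 against 139 and 96.4 against 68.2 in the same order, ratios of 0.918 and 1.41. The third was 8.75 and 9.40 times as high with myoblasts, but at signals of 14.8 and 25.9 on the myoblast arrays and 1.70 and 2.75 on the control arrays. The large ratio was thus found on the dimmest probe set alone, while the brightest was below 1 in both zones. The second probe set had 0.492 times the border zone signal in the infarct zone of control hearts and 0.758 times in that of myoblast hearts.

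Counted over all 14 probe sets, 5 were at least 2-fold higher with myoblasts in the border zone, where 9.95% of all probe sets were higher and 10.4% lower, and none was 2-fold lower. They were the probe sets of MMP1 and MMP9, 2 of MMP3 and 1 of TIMP3. In the infarct zone 5 were higher and none lower, against 10.5% and 9.58% of all probe sets, and these were MMP1, MMP14, 2 of MMP3 and 1 of TIMP3. Of these counts, the MMP14 probe set in the infarct zone was the single one above the array median. In the mean of the log2 ratios over both zones, 4 were at least 2-fold higher and none lower, against 7.7% and 7.82% of all probe sets, and MMP14 stood just inside 2-fold at 1.97. The median log2 ratio of the 14 probe sets was 0.20 (border) and 0.31 (infarct), against 0.0018 and 0.010 over all probe sets. With 1 probe set for each of the 8 genes, the one of highest mean signal, the medians were 0.20 and 0.09, against 0.02 and -0.0015 over all genes. Of the 5 MMP and TIMP probe sets averaging under 32 units, 4 were at least 2-fold higher in each zone. In that class 25.5% (border) and 27.0% (infarct) of all probe sets were at least 2-fold higher. MMP1, a TIMP3 probe set and the dimmer MMP3 probe sets, which did not follow each other, made up the 5. A call of an MMP3 probe set rested on a control signal of 1 in either zone.

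**Figure D3:**
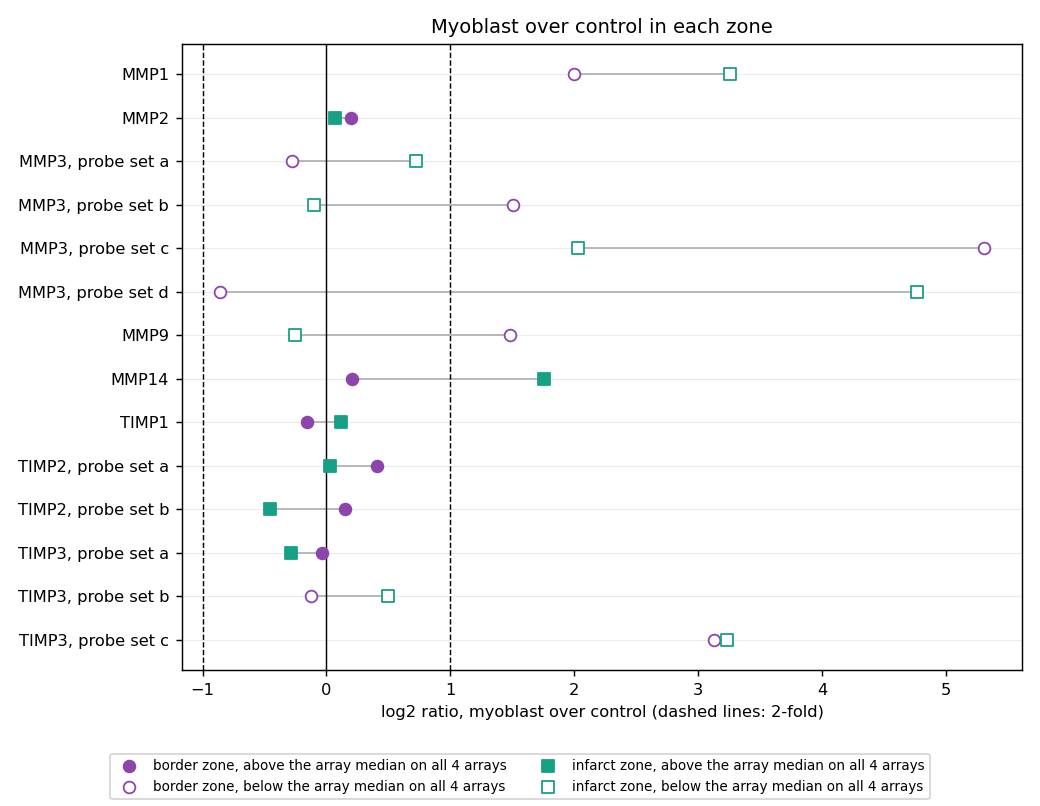
The 14 probe sets (y axis) with their log2 ratio of myoblast to control (x axis) in either zone, joined by a line, with filled symbols for probe sets above the array median on all 4 arrays. The filled symbols lie between -0.46 and 0.41 except that of MMP14 in the infarct zone at 1.75, and the log2 ratios over 2 all belong to open symbols, of which those of MMP3 probe set c in the border zone and d in the infarct zone are set against the lowest signal of 1.

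On the myoblast arrays, infarct tissue was 2-fold or more above border tissue for 3 of the 14 and below it for 1, against 9.77% and 8.18% of all probe sets. All 4 were MMP3 probe sets. On the control arrays 3 were higher (MMP9 and 2 of MMP3) and 2 lower (1 of MMP3 and 1 of TIMP3), against 8.95% and 8.25%. The 9 values all came from probe sets below the array median. For MMP14 the log2 ratio of infarct over border was 0.93 with myoblasts and -0.62 in controls.

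**Figure D4:**
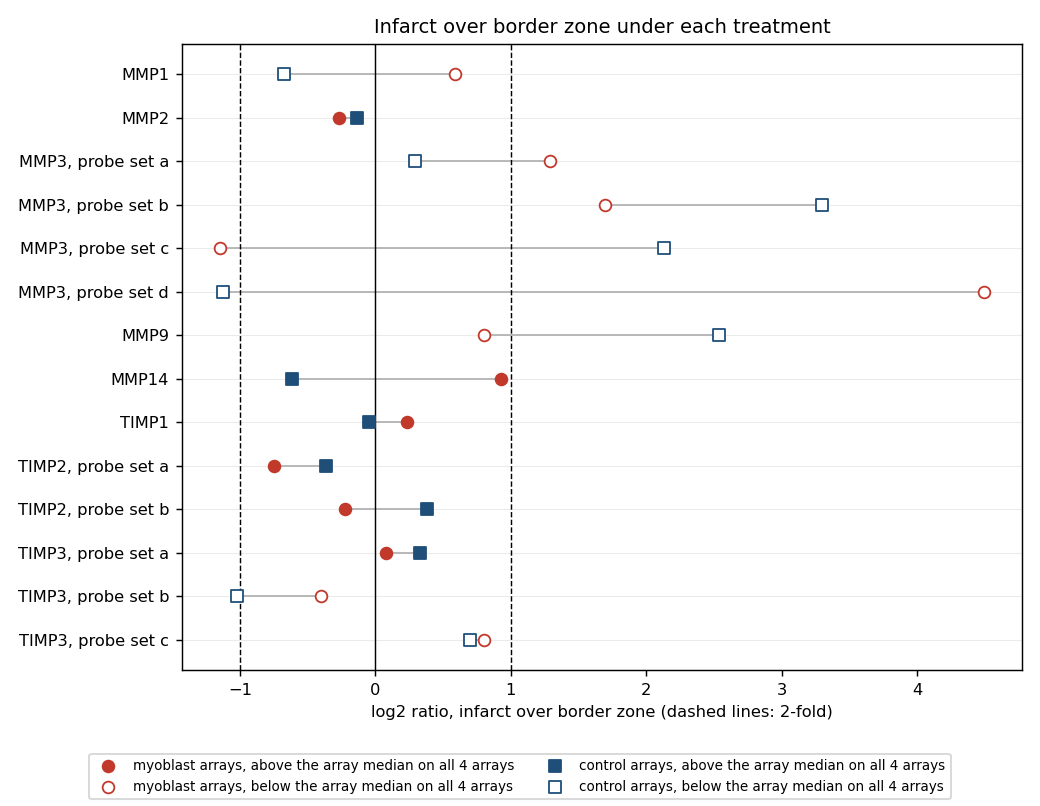
Log2 ratio of infarct over border zone (x axis) of each of the 14 probe sets (y axis) on the myoblast arrays and on the control arrays, joined by a line, with filled symbols for probe sets above the array median on all 4 arrays. No filled symbol passes 2-fold, and those of MMP14 lie on opposite sides of 0 (0.93 with myoblasts, -0.62 in controls), while the control points of MMP3 probe sets c and d rest on the lowest signal of 1.

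Of the other MMP and TIMP genes, MMP7, MMP13, MMP20 and TIMP4 were the only ones with a symbol on the array, and all their probe sets lay below the array medians. The brighter MMP13 probe set, for another collagenase, had 50.2 on the myoblast border array against 3.19 on the control border array, and 36.0 against 38.9 in the infarct zone. MMP7 (matrilysin) had 38.6 (myoblast) against 28.9 (control) in border tissue, and 3.39 against 33.9 in infarct tissue. MMP20, a protease known from tooth enamel, had 17.3 against 17.6 and 20.7 against 3.52, and the brighter TIMP4 probe set, for an inhibitor known from heart muscle, 22.5 against 3.58 and 40.1 against 39.5. On these probe sets a single array stood apart on the low side, the control border array for MMP13 and TIMP4, the control infarct array for MMP20 and the myoblast infarct array for MMP7. The dimmer probe sets did not show it, with 14.7 on the myoblast border array against 19.5 on the control border array for MMP13, and 7.61 against 6.90 for TIMP4.

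The genes that activate, inhibit or are cut by MMPs were described in the same way, with the probe set of highest mean signal for each gene. Over all 6765 genes, 6.42% were at least 2-fold higher and 5.75% lower with myoblasts in the border zone, and 6.5% higher and 5.78% lower in the infarct zone. Of 6 MMP inhibitors measured, 2 were higher (TIMP4 and TFPI2) and 1 lower (A2M) in the border zone, and A2M alone was lower in the infarct zone. A2M, a plasma inhibitor that traps proteases of many classes, was the only one of this list that was 2-fold apart in the same direction in both zones above the array median. It had 206 and 374 on the myoblast border and infarct arrays, against 799 and 817 on the control arrays (ratios 0.258 and 0.457). Its dimmer probe sets had ratios of myoblast over control of 0.387 and 0.698, and of 1.28 and 0.661, so that 2 of 3 probe sets were lower in both zones. TFPI2, a matrix-bound inhibitor of plasmin and other serine proteases, chosen here after its values were seen, had 7655 on the myoblast border array against 3213 on the control border array, and 3261 against 3281 in the infarct zone.

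Of 9 activators and inducers of MMPs, including plasminogen activators and cathepsins, only ELANE (neutrophil elastase) was at least 2-fold higher by the brightest probe set. It was so in both zones, at signals below the array medians, and none of the 9 was lower. A dimmer probe set of CTSS (cathepsin S), above the medians on all 4 arrays, was 2.24 times as high with myoblasts in infarct tissue and 1.81 times in border tissue. In the same order, the brightest CTSS probe set had ratios of 1.61 and 1.38, and the dimmest 1.34 and 1.40. Of 5 ADAM and ADAMTS proteases, which shed cell surface proteins and cleave proteoglycans, 1 was higher in the border zone (ADAM10), and 2 were higher (ADAM10 and ADAMTS1) and 2 lower (ADAM15 and ADAM17) in the infarct zone. The ADAM17 probe sets disagreed, since the brightest had 66.5 on the myoblast infarct array against 297 on the control infarct array, and the next 157 against 127. ADAMTS1 was the only one of these 4 above the median on all 4 arrays, with 6178 on the myoblast infarct array against 2600 on the control infarct array and 4998 against 2790 in the border zone. Its dimmer probe set, also above the medians, had 2202 against 1397.5 in the infarct zone (ratio 1.58). In the border zone that probe set had 1760 against 1808 (ratio 0.974). Of 5 transcription factors of the AP-1 and ETS families, which act on many MMP promoters, none passed 2-fold in the border zone and FOS and FOSL2 were higher in the infarct zone. FOSL2 had 380 against 163 in the infarct zone and 357 against 179 in the border zone, and FOS 13583 against 6443 and 11892 against 6870. CTSS, ADAMTS1, FOS and FOSL2 were named after their values were seen.

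Genes of matrix proteins that MMPs can cut differed mostly between the zones of the myoblast heart. Of 15 measured, 14 were lower in the infarct than in the border zone on the myoblast arrays, and 5 of them at least 2-fold (BGN, TNC, VCAN, COL5A1 and FBN1). On the control arrays 8 of 15 were lower and none passed 2-fold in either direction. Over all 6765 genes, 45.5% were lower on the myoblast arrays and 45.3% on the control arrays, and the shares at least 2-fold higher and lower were 5.45% and 4.58% on the myoblast arrays and 4.91% and 4.15% on the control arrays. The proteoglycan biglycan (BGN) had 2604 on the myoblast infarct array against 8665 on the myoblast border array, and 3738 on the control infarct array against 4456 on the control border array. The microfibril protein fibrillin 1 (FBN1) had 6018 against 15070.3 with myoblasts and 11904 against 10431 in controls. The median log2 ratio of infarct over border of the 15 genes was -0.56 with myoblasts and -0.04 in controls. MMP14 had the opposite order on the myoblast arrays, and MMP2 (0.829 times) and the brighter TIMP2 probe set (0.596 times) were lower in the infarct zone, within 2-fold. The 8 fibroblast markers, 4 of which are also in the matrix list (COL1A2, COL3A1, DCN and LUM), were all lower in the infarct zone of the myoblast heart, and their part in these differences was not tested.

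**Figure D5:**
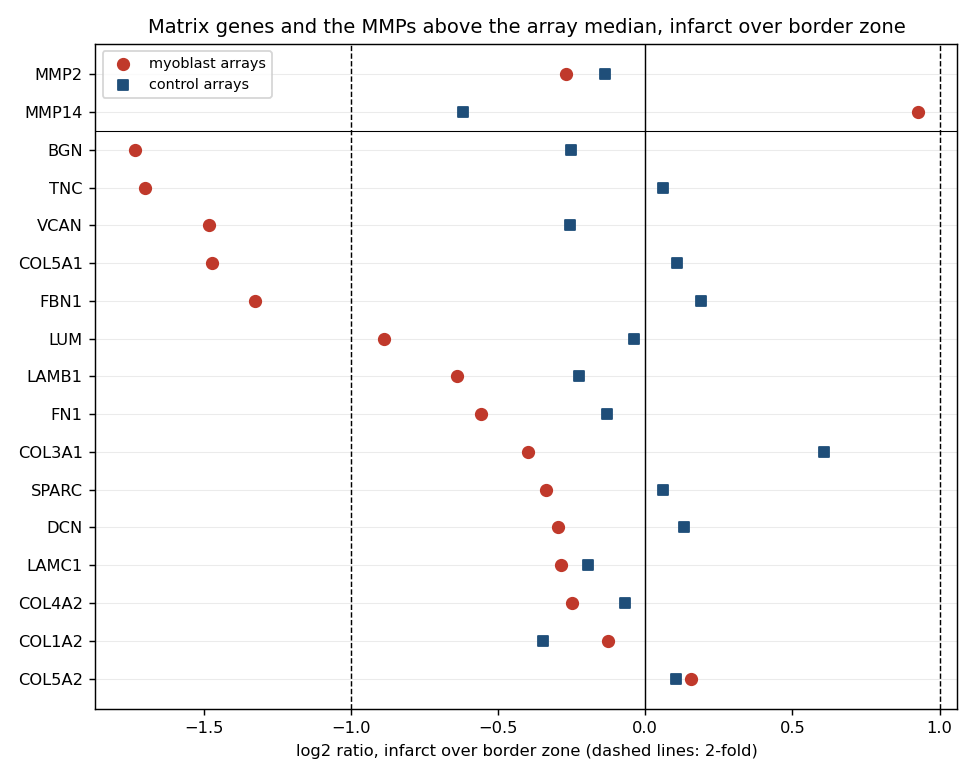
Log2 ratio of infarct over border zone (x axis) of MMP2, MMP14 and 15 genes of MMP substrates (y axis, 1 probe set per gene) on the myoblast arrays and the control arrays. On the myoblast arrays 5 substrates lie below -1 and MMP14 at 0.93, whereas on the control arrays all 15 lie between -0.35 and 0.61.

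Relative to control, the matrix genes were higher in the border zone for 14 of 15 and lower in the infarct zone for 10 of 15. Of all 6765 genes, 48.0% were lower with myoblasts for border tissue and 50.2% for infarct tissue. The median log2 ratios of the matrix genes were 0.53 (border) and -0.32 (infarct), against 0.02 and -0.0015 over all genes. By the brightest probe set of each gene, TNC (tenascin C), a matrix protein of healing tissue, was the single one at least 2-fold apart in the same direction in both zones. It had 1866 on the myoblast border array against 240.0 on the control border array, and 575 on the myoblast infarct array against 250.3 on the control infarct array. A dimmer FN1 (fibronectin) probe set, also above the medians on all 4 arrays, had ratios of myoblast over control of 3.28 (border) and 3.97 (infarct). The brightest FN1 probe set had 1.63 and 1.21. Those below the array medians had 1.78 and 0.703 in border tissue, and 0.422 and 0.473 in infarct tissue. COL3A1, the collagen of early scar and a substrate of MMP1, had 1 annotated probe set. It had 155 (myoblast) against 208 (control) in border tissue, and 118 against 318 in infarct tissue. By the brightest probe set of each gene, COL3A1 was the 1 matrix gene at least 2-fold lower with myoblasts in the infarct zone. A dimmer VCAN probe set, above the medians on all 4 arrays, had 148 (myoblast) against 528 (control) there, a ratio of 0.281. The brighter VCAN probe sets had ratios of 0.627 and 0.632 in that zone.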

How the data were processed

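Total RNA of heart tissue from 4 conditions was hybridized by the authors to Affymetrix Porcine Genome Arrays after 3' IVT labelling. Scans came from a GeneChip Scanner 3000 and were normalized with MAS 5.0, the tool that the submitters' processing notes also name. The deposited values are log2 signals made by the authors, each array scaled to a common mean (500.1 after trimming 2% at each end). They were used as deposited. Symbols came from the platform annotation, and the gene IDs of all 8 genes gave the same symbol in RefSeq.

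Each comparison is the difference of 2 log2 signals, called at 2-fold without a test, since each group has 1 array. The number of arrays limits the precision, and detection calls were not used here. The genes, lists and rule were chosen with earlier results of these data known. Genes outside the MMP and TIMP families were named where the brightest probe set was 2-fold apart the same way in both zones, or under both treatments, with the brighter array of each contrast above its median. Other genes of those lists, and single markers, were named after their values were seen. Profiles were compared as described. No sequences were used. Scripts were tested on simulated data, with Python 3.11.15 and limma 3.58.1 in R 4.3.3.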

Additional observations from a re-analysis of the deposited data

Results flagged for a closer look

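For 6 of the 14 probe sets the ratio of myoblast over control differed at least 2-fold between the zones, with opposite directions in the 2 zones or, between zones, under the 2 treatments. With 1 array per condition this difference was not tested. The same was seen for 21.9% of all probe sets on the array, and for 6.45% of those with a mean signal of 128 to 512 units, the class of MMP14. As the log2 ratio of the infarct zone minus that of the border zone, the value was 1.55 for MMP14, the only one of the 6 above the array medians. It was 1.26 for MMP1 and -1.74 for MMP9. For MMP3 it was -1.61, -3.28 and 5.62 on the 3 dimmer of its 4 probe sets, of which -3.28 and 5.62 rest on a control signal of 1, the lowest value, and have no measured size.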

How the results depend on the processing

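The 14 probe sets gave 5 called for border tissue and 5 for infarct tissue (myoblast over control), 4 between the zones of the myoblast heart, 5 between those of the control heart and 4 in the mean over zones, and quantile normalization and centring on array medians left these counts as they were. In the same order, floors at the 25th percentile of each array gave 0, 1, 1, 2 and 0, and floors at the array median 0, 1, 0, 0 and 0. Requiring the brighter array to be above its median also gave 0, 1, 0, 0 and 0. The brightest probe set of each gene gave 2, 2, 1, 1 and 1. The mean over the probe sets of a gene gave 3 in the border zone, and 1 and 2 between zones of the myoblast and control hearts. A threshold of 4-fold gave 2 in the border zone, 1 and 3 between the zones, and one of 1.5-fold gave 8 and 8 between the zones and 7 in the mean. Those that end at 0 or 1 under floors do so by construction, since dim signals are set equal. limma, with treatment and zone as terms and 1 residual degree of freedom, called 0 of the 14 and 0 of 24123 probe sets at an adjusted p of 0.05, and 2 of the 14 (MMP1 and a TIMP3 probe set) and 2125 of all at an unadjusted p of 0.05. The log2 ratio of MMP14 in the infarct zone was 1.70 to 1.75 under every scaling and floor. The floors could not change it, since all its signals lie above them.

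Of 160 values of the brightest probe sets under another scaling or floor, 150 kept their side of 2-fold, and of values at 2-fold 6 dropped below it and 4 changed sign, all from floors. A further 6 values within 2-fold changed sign, 5 under a floor (MMP1, MMP3 and MMP9) and 1 under centring on medians (TIMP2 in the infarct zone). With the floor at the 25th percentile, MMP1 had -0.068 (border), -0.024 (infarct) and -0.046 (mean), and with the floor at the median MMP9 had -0.019 between the zones of the control heart, values of genes at the floor. No paired analysis was possible because the labels give no replicate numbers, and the limma result above matched arrays by zone only.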
